A study of Homo sapiens with 6 samples.

Results

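The endoplasmic reticulum (ER) chaperone and unfolded protein response genes were followed as a set of 35 genes, taken from the deposited count table of 33451 genes by their gene names. They covered the Hsp70 and Hsp90 chaperones of the ER with their cofactors, the lectin chaperones with the glucosyltransferase UGGT1, and the disulfide isomerases and oxidases. The stress sensors ERN1, ATF6 and ATF6B and the genes of ER-associated degradation were also covered. SELENOS was listed under its older symbol VIMP, and the other 34 genes were listed under their own names. The RNA came from MDA-MB-453, an established human breast cancer cell line that lacks the oestrogen receptor and carries the androgen receptor. The treated cells received 100 nM of 25(OH)D, the circulating metabolite of vitamin D, and the control cells its solvent alone, both for 5 days in medium with fetal bovine serum. Each group had 3 libraries of polyadenylated RNA made with a strand-marking kit, all from the same cell line. The study's methods call the replicates biological without saying whether they were separate cultures, so p-values measure the spread between these libraries.

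Proteins that enter the secretory pathway are folded in the ER, where chaperones bind them, oxidoreductases form their disulfide bonds, and lectins read their sugars. When unfolded proteins accumulate, the sensors IRE1 (the product of ERN1), ATF6 and PERK (the product of EIF2AK3) start the unfolded protein response. IRE1 splices the mRNA of XBP1, cleaved ATF6 enters the nucleus, and PERK slows translation and raises ATF4. XBP1 and ATF6 act on promoter elements known as the ER stress response elements, while proteins that fail to fold are sent back to the cytosol and degraded. The ER stress response element (ERSE) was searched as CCAAT, 9 bases of any kind and CCACG, its variant ERSE-II as ATTGG, 1 base and CCACG, and the core of the unfolded protein response element (UPRE) as TGACGTG, each on both strands.

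The libraries held between 33268860 and 40928176 counts, and the members took no more than 1.03% of the control counts and between 1.13% and 1.14% of the 25(OH)D counts. All 35 members passed the low-count filter, with DERL3 as the least covered (11 to 31 counts in a library) and ERO1B next (70 to 125 counts). Mitochondrial genes took between 7.85% and 7.99% of the control counts and between 8.89% and 9.24% of the 25(OH)D counts, and the part of this shift in the results was not tested. All 10 markers of a luminal, androgen receptor-positive breast cell were present at 76.2 CPM or more, where CPM relate the counts to library size after trimmed mean of M values (TMM) normalisation. The 5 basal markers summed to between 0.720 and 1.16 CPM in the control libraries and to between 0.859 and 1.76 CPM in the 25(OH)D libraries, and the 5 immune markers to 0.520 CPM or less. The 5 fibroblast markers summed to between 36.5 and 39.0 CPM in the control libraries and to between 32.0 and 34.7 CPM in the 25(OH)D libraries, with COL1A1 alone above 0.435 CPM. Of the endothelial markers, 2 of 3 were listed, and they summed to 0.489 CPM or less. LUM and CD3E were at 0 counts in all 3 control libraries.

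Levels between members were compared as RPKM, the deposited counts scaled to exon length and library total. In the control libraries CALR had the highest mean level, 597 ± 7.14 RPKM (SD, n = 3), and HSP90B1 the next, 535 ± 31.6 RPKM, and the values of these neighbours did not overlap. CANX followed at 213 ± 0.814 RPKM, OS9 at 137 ± 2.39 RPKM and HSPA5 at 114 ± 3.84 RPKM. The levels of PDIA4 (103 ± 2.16 RPKM) and PDIA3 (99.9 ± 0.866 RPKM) lay closer together than 2 times the larger SD, as did those of UGGT1, EDEM3 and DNAJC10, which lay between 8.83 and 9.14 RPKM. At the low end stood ERN1 (1.88 ± 0.0557 RPKM), DERL2 (1.62 ± 0.169 RPKM), ERO1B (0.437 ± 0.0621 RPKM) and DERL3 (0.131 ± 0.0492 RPKM). The other sensor genes, ATF6 and ATF6B, stood at 3.31 ± 0.172 RPKM and 13.3 ± 0.348 RPKM. In the 25(OH)D libraries EDEM1 stood at 12.3 ± 0.572 RPKM against 6.50 ± 0.270 RPKM in control, and HERPUD1 at 3.66 ± 0.0440 RPKM against 5.23 ± 0.470 RPKM.

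**Figure D1:**
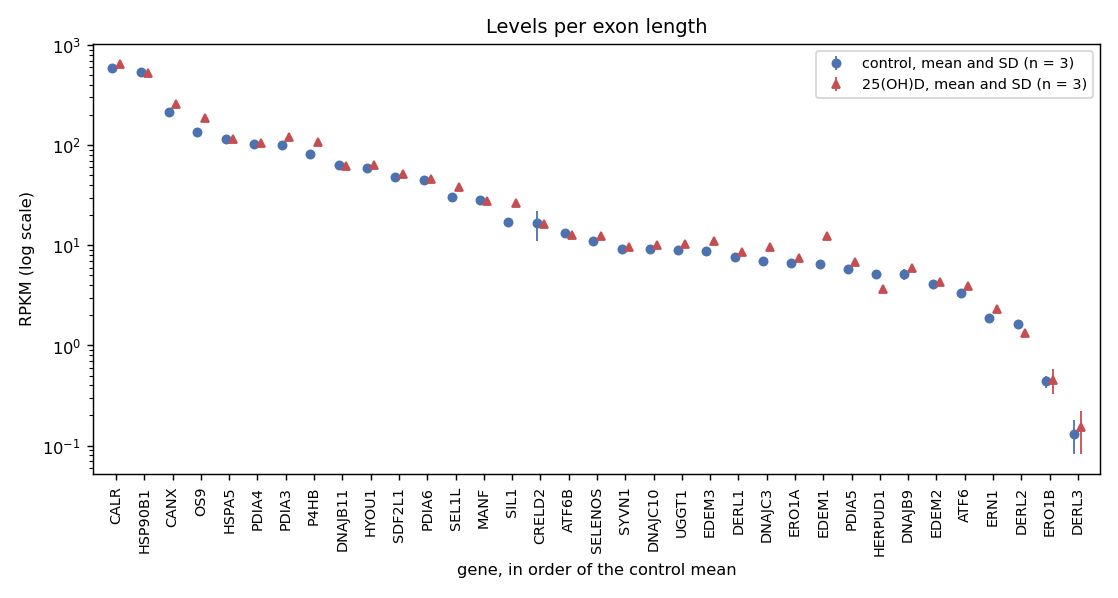
Mean RPKM of the 35 members on a log axis, in the order of the control mean, with the SD of 3 control libraries (blue circles) and 3 libraries of cells cultured with 25(OH)D (red triangles). Members span from 0.131 RPKM for DERL3 to 597 RPKM for CALR in control, and EDEM1 has the widest gap between the groups.

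After culture with 25(OH)D, 19 of the 35 members were higher and 1, HERPUD1, was lower than in control, by the quasi-likelihood test of edgeR at a Benjamini-Hochberg adjusted p under 0.05. Among all 18183 genes tested, the same test called 33.8% in either direction, 17.3% as higher and 16.5% as lower. The rises were of moderate size, led by EDEM1 with a log2 fold change of 0.97 and SIL1 with 0.65, and the median log2 fold change was 0.21 over the members and -0.01 over all genes tested. The 3 control values did not overlap the 3 values after 25(OH)D in 22 members, the 20 called ones and PDIA4 and PDIA6, against 45.7% of all genes tested. No member exceeded an absolute log2 fold change of 1 with an unadjusted p under 0.05 by edgeR or by DESeq2, limits that 6.65% of all genes passed by edgeR, while 24 members had an unadjusted p under 0.05 by edgeR. Since the RNA was of bulk cultures, fewer cells of a kind and less RNA per cell cannot be told apart.

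**Figure D2:**
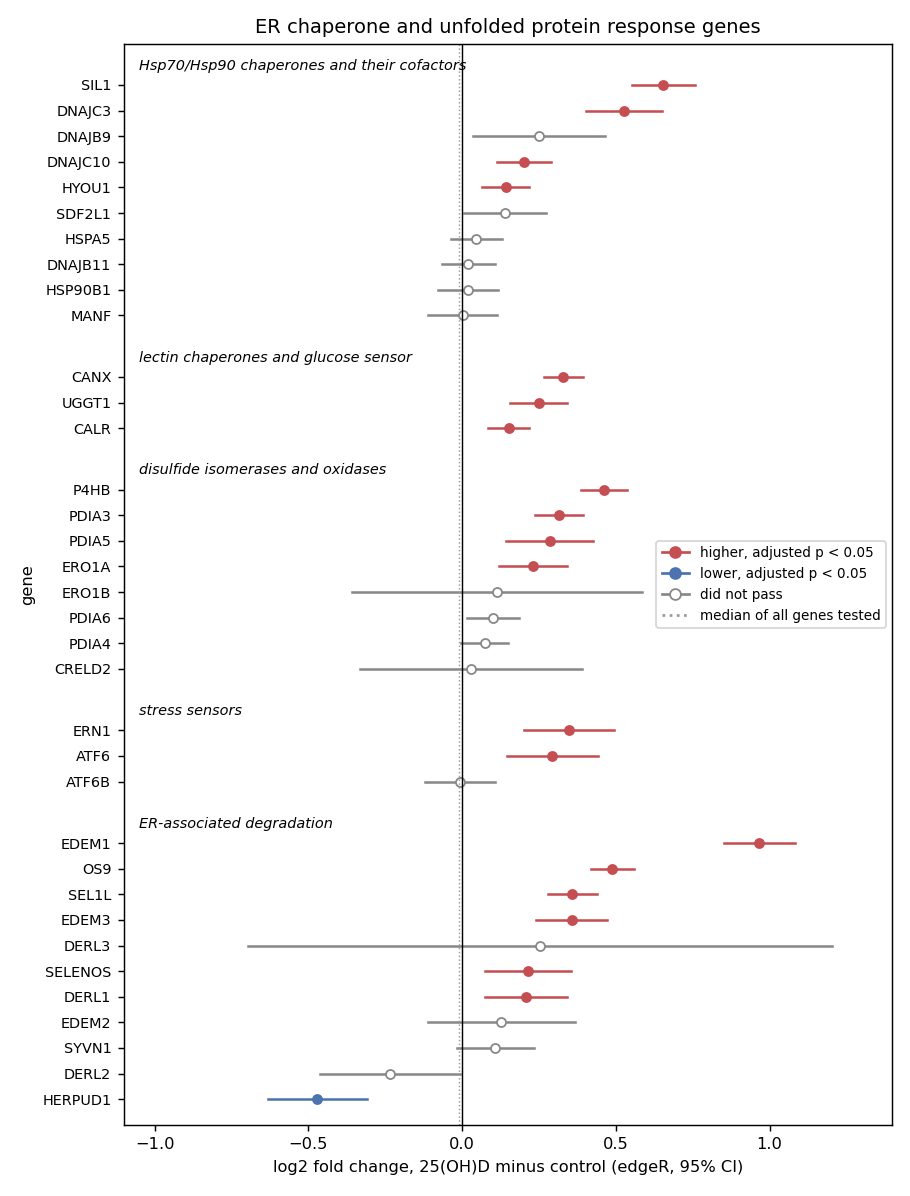
Log2 fold change of 25(OH)D against control for each member, with its 95% confidence interval from edgeR's quasi-likelihood fit, grouped by role. Red points were called higher, the blue point (HERPUD1) lower, and open points did not pass an adjusted p of 0.05, and EDEM1 at 0.97 lies farthest from zero.

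Among the 10 Hsp70 and Hsp90 chaperones and cofactors, 4 were higher and 6 did not pass the test, with a median log2 fold change of 0.14. The share called was 40.0%, against 33.8% of all genes tested, and the difference was not tested. The 4 called genes were HYOU1, SIL1, DNAJC3 and DNAJC10, and the main chaperones HSPA5 and HSP90B1 were not among them. DNAJB9, DNAJB11, SDF2L1 and MANF did not pass either. HSPA5 (chromosome 9), the Hsp70 of the ER also known as BiP, had 427, 435 and 459 CPM in the 3 control libraries and 466, 443 and 455 CPM in the 3 libraries after 25(OH)D. The groups overlapped, and the log2 fold change of 0.05 (95% CI -0.04 to 0.13) had an adjusted p of 0.400 by edgeR's quasi-likelihood test. HSP90B1 (chromosome 12), the Hsp90 of the ER, had 2307, 2503 and 2613 CPM in control and 2499, 2394 and 2635 CPM after 25(OH)D, and its interval on the log2 scale ran from -0.08 to 0.12 (adjusted p = 0.778). These intervals lie within 0.13 of zero on the log2 scale.

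SIL1 (chromosome 5, 138946720 to 139293557, minus strand of GRCh38), a nucleotide exchange factor that frees BiP from ADP, had 64.6, 70.2 and 69.7 CPM in control and 106, 107 and 109 CPM after 25(OH)D. All 3 values after 25(OH)D lay above all 3 control values, and the rise was 57.5% (log2 fold change 0.65, SE 0.0477, adjusted p = 8.93e-08 by edgeR's quasi-likelihood test). HYOU1, the other exchange factor of BiP and a large Hsp70 relative, had 446, 446 and 453 CPM in control and 509, 495 and 478 CPM after 25(OH)D. Its groups did not overlap either, with a rise of 10.3% (log2 fold change 0.14, SE 0.0357, adjusted p = 0.00680). The 95% confidence interval of HYOU1 (0.06 to 0.22) lay below that of SIL1 (0.55 to 0.76), and HYOU1 missed the adjusted threshold with upper-quartile factors and with limma on log2 RPKM.

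The J-domain proteins, which hand clients to BiP, differed among themselves. DNAJC3 (p58IPK) went from 39.4, 38.1 and 37.0 CPM to 57.3, 55.8 and 51.9 CPM with no overlap (log2 fold change 0.53, SE 0.0576, adjusted p = 5.71e-06, edgeR), a rise of 44.2%. DNAJC10 (ERdj5), which also reduces disulfide bonds of proteins to be degraded, went from 194, 195 and 201 CPM to 228, 216 and 234 CPM (log2 fold change 0.20, SE 0.0409, adjusted p = 0.00146, edgeR). DNAJB9 (ERdj4) had 13.5, 13.2 and 16.5 CPM in control and 17.8, 15.4 and 18.2 CPM after 25(OH)D, and control replicate 3 lay above the lowest 25(OH)D library. Its log2 fold change of 0.25 (SE 0.0999) had an adjusted p of 0.0696, and without control replicate 3 it was 0.36 with an adjusted p of 0.0109 by the same edgeR test. It also passed without replicate 2 of the 25(OH)D group, at 0.33. DNAJB11 (ERdj3), SDF2L1, which works with it, and MANF, a secreted stress-induced protein that binds BiP, did not pass. Their log2 fold changes were 0.02 (95% CI -0.06 to 0.11), 0.14 (95% CI 0.00468 to 0.27) and 0.00175 (95% CI -0.11 to 0.11), and the groups overlapped in each. Without control replicate 1, SDF2L1 passed, at 0.20 with an adjusted p of 0.0347 by edgeR.

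The promoter sequences of these members, read from RefSeq windows of GRCh38.p14 that run from 250 bases before to 50 bases after the transcription start, set the element-bearing chaperones beside the cofactor that rose most. HSPA5 held an ERSE 66 to 48 bases before its start (chr9:125241379-125241421, minus strand), HSP90B1 held 2, of which the nearer lay 89 to 71 bases before it (chr12:103930309-103930351, plus strand), and HYOU1 held 2 of ERSE-II, the nearer 79 to 69 bases before it (chr11:119057262-119057296, minus strand). The capitals mark the element's fixed letters, with CGTGG and ATTGG or CCAAT where it reads on the other strand. In SIL1 the 100 bases before the start (chr5:139198369-139198468, minus strand) are shown, with capitals on an ATTGG, which is CCAAT read on the other strand, and the 300-base window held no CCACG. This start lies inside the longer span that the deposited annotation gives SIL1.
HSPA5: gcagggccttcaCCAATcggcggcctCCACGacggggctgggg
HSP90B1: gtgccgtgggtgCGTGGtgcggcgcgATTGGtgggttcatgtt
HYOU1: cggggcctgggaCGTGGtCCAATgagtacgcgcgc
SIL1: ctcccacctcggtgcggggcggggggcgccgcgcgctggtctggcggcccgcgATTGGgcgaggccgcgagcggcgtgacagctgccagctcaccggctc

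The lectin chaperone genes CANX and CALR and the glucosyltransferase gene UGGT1 were all higher, as were 17.3% of all genes tested. CANX (calnexin, chromosome 5), the membrane-bound lectin chaperone, had 1303, 1308 and 1324 CPM in control and 1651, 1643 and 1650.2 CPM after 25(OH)D. The libraries of a group lay within a few per cent of each other, and the rise of 25.6% was far larger than that spread (log2 fold change 0.33, SE 0.0296, adjusted p = 7.91e-07 by edgeR's quasi-likelihood test). CALR (calreticulin, chromosome 19), its soluble counterpart, had 1586, 1577 and 1627 CPM in control and 1814, 1748 and 1757 CPM after 25(OH)D, without overlap (log2 fold change 0.15, SE 0.0313, adjusted p = 0.00169). UGGT1, the glucosyltransferase that returns misfolded glycoproteins to both lectins, had 103, 101 and 96.6 CPM in control and 119, 121 and 117 CPM after 25(OH)D, again without overlap (log2 fold change 0.25, SE 0.0433, adjusted p = 4.21e-04). The ERSE of CANX lay 151 to 133 bases before a RefSeq start (chr5:179698766-179698808, plus strand) and that of CALR, on the other strand, 225 to 207 bases before its start (chr19:12938372-12938414, plus strand), and both are shown because these members rose while HSPA5 and HSP90B1, with the same element, did not pass.
CANX: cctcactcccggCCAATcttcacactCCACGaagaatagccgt
CALR: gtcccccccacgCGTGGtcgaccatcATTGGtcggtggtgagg

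Of the 8 disulfide isomerases, oxidases and related genes, 4 were higher and 4 did not pass, with a median log2 fold change of 0.17. P4HB (chromosome 17, 81843159 to 81860694, minus strand), the archetypal protein disulfide isomerase and a subunit of prolyl 4-hydroxylase, had 425, 419 and 428 CPM in control and 598, 585 and 568 CPM after 25(OH)D. No values overlapped, and P4HB had the highest fold change of this group, a rise of 37.6% (log2 fold change 0.46, SE 0.0346, adjusted p = 1.25e-07 by edgeR's quasi-likelihood test). PDIA3 (ERp57), the isomerase that works with calnexin and calreticulin, had 419, 412 and 422 CPM in control and 533, 526 and 499 CPM after 25(OH)D (log2 fold change 0.31, SE 0.0365, adjusted p = 1.06e-05). PDIA5 went from 23.5, 21.8 and 23.7 CPM to 27.3, 28.4 and 28.4 CPM (log2 fold change 0.28, SE 0.0657, adjusted p = 0.00371, edgeR).

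The oxidase ERO1A, which passes electrons from the isomerases to oxygen, had 49.8, 48.5 and 49.2 CPM in control and 56.1, 59.6 and 57.4 CPM after 25(OH)D, without overlap (log2 fold change 0.23, SE 0.0512, adjusted p = 0.00276 by edgeR). Its paralogue ERO1B was low, with 1.95, 2.38 and 2.61 CPM in control and 2.05, 3.25 and 2.15 CPM after 25(OH)D, and its interval was wide (95% CI -0.36 to 0.58 on the log2 scale). PDIA6 and PDIA4 showed no overlap between the groups and small log2 fold changes, 0.10 (95% CI 0.01 to 0.18, adjusted p = 0.0674) and 0.07 (95% CI -0.00379 to 0.15, adjusted p = 0.137), which did not pass in edgeR. Without replicate 3 of the 25(OH)D group, PDIA6 passed, at 0.14 with an adjusted p of 0.0208 by the same test. CRELD2, a stress-induced protein with isomerase activity, had 107, 93.4 and 53.6 CPM in control and 78.5, 90.1 and 90.8 CPM after 25(OH)D. Control replicate 3 stood far below the other control libraries, and the log2 fold change was 0.03 (adjusted p = 0.917). Without that library it was -0.21, with an adjusted p of 0.0399 by the same edgeR test, so the omission of 1 library changed both sign and call. The sign of CRELD2 also changed with all libraries kept, at -0.017 with library sizes alone and -0.012 with upper-quartile factors.

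**Figure D3:**
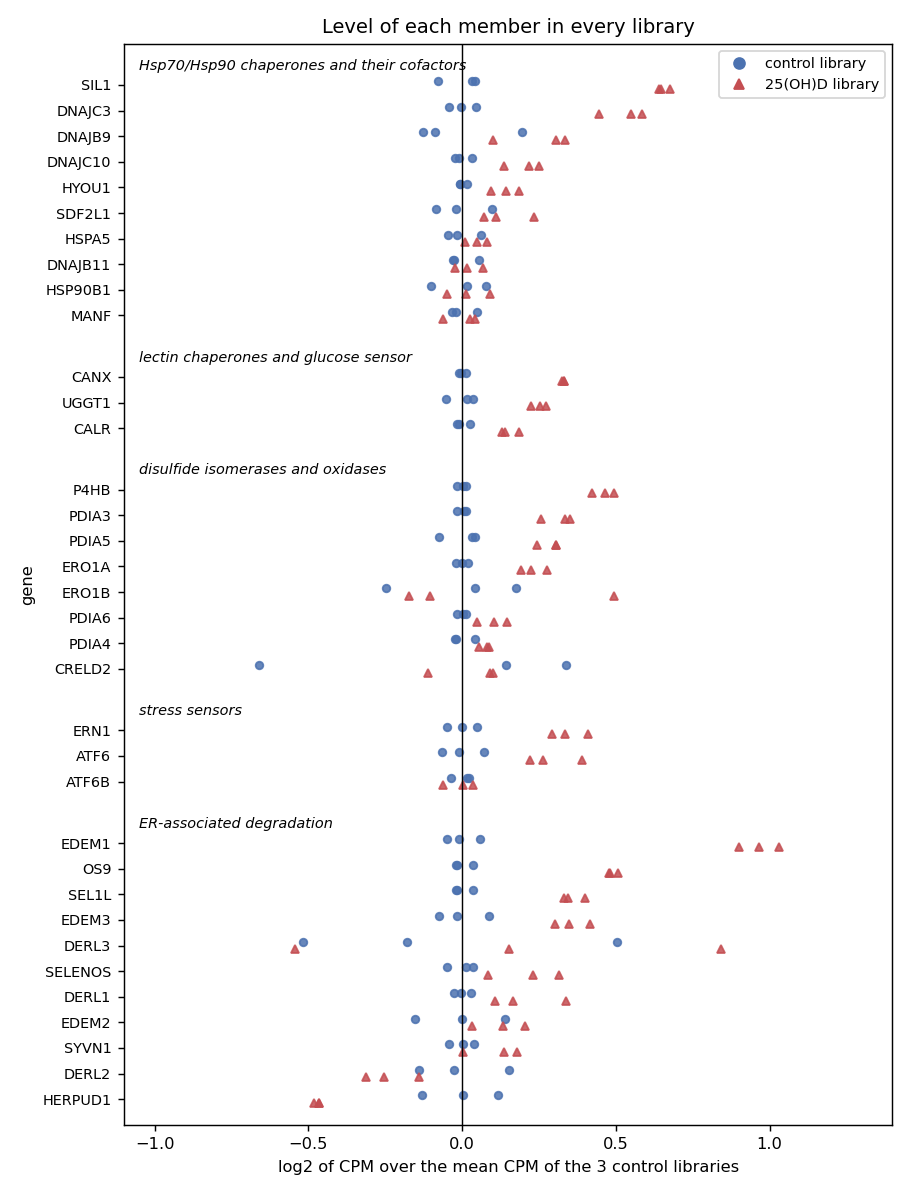
Level of each member in every library, as the log2 of its CPM over the mean CPM of the 3 control libraries (control as blue circles, 25(OH)D as red triangles), grouped by role. The 25(OH)D libraries of EDEM1, SIL1, DNAJC3, OS9 and P4HB lie clear of the control libraries, and control replicate 3 of CRELD2 lies far to the left of the other control libraries.

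Of the 3 stress sensor genes, ERN1 and ATF6 were higher and ATF6B did not pass, a share called of 66.7% against 33.8% of all genes. ERN1, which encodes the kinase and RNase IRE1, had 19.5, 20.1 and 20.8 CPM in control and 25.4, 26.8 and 24.7 CPM after 25(OH)D. All values after 25(OH)D were above all control values (log2 fold change 0.35, SE 0.0682, adjusted p = 0.00111 by edgeR's quasi-likelihood test), a rise of 27.3%. ATF6, the membrane-bound transcription factor that is cut in the Golgi under stress, had 27.1, 25.6 and 24.6 CPM in control and 30.0, 30.9 and 33.8 CPM after 25(OH)D (log2 fold change 0.29, SE 0.0689, adjusted p = 0.00425). Its paralogue ATF6B had 48.5, 48.3 and 46.6 CPM in control and 49.0, 48.0 and 45.8 CPM after 25(OH)D, and the groups overlapped (95% CI -0.12 to 0.11, adjusted p = 0.937). EIF2AK3, which encodes the third sensor PERK and is not a member, had 56.7, 48.9 and 51.0 CPM and 51.0, 51.4 and 58.8 CPM, and did not pass (95% CI -0.11 to 0.19, adjusted p = 0.709). The sensors are regulated mainly as proteins, and their activity was not measured here.

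ER-associated degradation held both the largest rise and the only called fall among the members. Called genes made up 63.6% of this role, against 33.8% of all genes tested. Of its 11 genes, 6 were higher, 1 was lower and 4 did not pass, with a median log2 fold change of 0.21. Their summed level went from a mean of 1287 ± 9.13 CPM to 1720.5 ± 26.2 CPM (SD, n = 3 each) with no test of the sum, a ratio of 1.34, and OS9 and SEL1L made up most of it. That ratio was 1.20 for the isomerases and oxidases, 1.18 for the lectin chaperones with UGGT1 and 1.12 for the stress sensors. It was 1.05 for the Hsp70 and Hsp90 chaperones and cofactors, where HSP90B1 alone took most of the counts.

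EDEM1 (chromosome 3, 5187646 to 5219957, plus strand), a mannosidase-like protein that marks misfolded glycoproteins for degradation, had 43.0, 45.1 and 41.9 CPM in control and 88.6, 84.6 and 80.9 CPM after 25(OH)D. Each library after 25(OH)D held between 1.87 and 2.05 times the control mean, with a rise of 95.5% (log2 fold change 0.97, SE 0.0540, adjusted p = 4.90e-09 by edgeR's quasi-likelihood test). When single libraries were omitted, its value stayed between 0.94 and 1.01. EDEM3 had 67.1, 72.1 and 64.6 CPM in control and 83.7, 90.7 and 86.4 CPM after 25(OH)D (log2 fold change 0.36, SE 0.0540, adjusted p = 1.32e-04). EDEM2 had 6.96, 8.54 and 7.74 CPM in control and 8.51, 8.92 and 7.92 CPM after 25(OH)D with overlap, and did not pass (95% CI -0.11 to 0.37, adjusted p = 0.420).

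OS9 (chromosome 12, 57693955 to 57721557, plus strand), the lectin that carries trimmed glycoproteins to the ubiquitin ligase complex, had 688, 687 and 714 CPM in control and 991, 973 and 969.8 CPM after 25(OH)D. Its rise of 40.4% had the smallest SE of the 5 largest rises (log2 fold change 0.49, SE 0.0328, adjusted p = 3.53e-08 by edgeR). SEL1L, the adaptor of that complex, had 286, 297 and 285 CPM in control and 381, 367 and 364 CPM after 25(OH)D, without overlap (log2 fold change 0.36, SE 0.0369, adjusted p = 3.18e-06). SYVN1 (HRD1), the ubiquitin ligase itself, had 50.2, 51.6 and 48.7 CPM and 55.1, 56.7 and 50.3 CPM, with replicate 3 of the 25(OH)D group inside the control range, and did not pass (log2 fold change 0.11, 95% CI -0.02 to 0.23, adjusted p = 0.180). Without that library it passed, at 0.17 with an adjusted p of 0.0370 by edgeR.

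HERPUD1 (chromosome 16, 56932048 to 56944863, plus strand), a stress-induced membrane protein that holds the degradation complex together, had 28.8, 26.6 and 24.3 CPM in control and 19.3, 19.2 and 19.0 CPM after 25(OH)D. The 3 libraries after 25(OH)D were nearly equal and all lay below the control libraries, and the level fell by 27.9% (log2 fold change -0.47, SE 0.0753, adjusted p = 2.10e-04 by edgeR's quasi-likelihood test). Omission of single libraries kept the log2 fold change between -0.52 and -0.40.

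The derlins are membrane proteins of the channel through which proteins leave the ER. DERL1 had 54.3, 53.1 and 52.3 CPM in control and 57.3, 67.3 and 59.7 CPM after 25(OH)D, without overlap (log2 fold change 0.21, SE 0.0617, adjusted p = 0.0182 by edgeR), but the call did not hold without 25(OH)D replicate 2 (log2 fold change 0.14) or without control replicate 2 (log2 fold change 0.21). DERL2 had 11.3, 9.25 and 10.0 CPM and 8.22, 8.56 and 9.27 CPM, with overlap (95% CI -0.46 to -0.00756, adjusted p = 0.107), and DERL3 had between 0.338 and 0.882 CPM in every library, too few reads for a narrow interval (95% CI -0.70 to 1.20). SELENOS, a selenoprotein that recruits the ATPase VCP to the derlins, had 40.0, 41.7 and 42.4 CPM in control and 48.6, 51.4 and 43.9 CPM after 25(OH)D (log2 fold change 0.21, SE 0.0644, adjusted p = 0.0191). Its call was lost without 25(OH)D replicate 1 (0.21), without 25(OH)D replicate 2 (0.17) and without control replicate 1 (0.20 on the log2 scale).

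Promoter stretches of this group show the members at both ends of the range. The RefSeq windows of EDEM1 and OS9 held neither ERSE nor ERSE-II, and the 100 bases before the start are shown for EDEM1 (chr3:5187607-5187706, plus strand) and OS9 (chr12:57694032-57694131, plus strand), with capitals on CCAAT and on the letters of CCACG, which read as CGTGG here, where they stand apart. HERPUD1 held an ERSE-II 117 to 107 bases before its start (chr16:56932013-56932047, plus strand), with its fixed letters in capitals.
EDEM1: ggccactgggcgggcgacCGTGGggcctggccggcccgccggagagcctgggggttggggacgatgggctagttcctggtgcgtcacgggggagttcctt
OS9: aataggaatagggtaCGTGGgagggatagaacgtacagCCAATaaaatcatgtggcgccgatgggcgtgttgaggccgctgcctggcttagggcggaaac
HERPUD1: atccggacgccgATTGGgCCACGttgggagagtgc

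Over all members, 32 of 35 had at least 1 RefSeq window, and PDIA3, DERL1 and DERL3 had none. An ERSE was found in HSPA5, HSP90B1, CALR, CANX, PDIA6, CRELD2 and ERO1B, an ERSE-II in HYOU1, SDF2L1 and HERPUD1, and the UPRE core in DNAJC10 and HYOU1. In HYOU1 the UPRE core shared its letters CGTG with the ERSE-II farther from the start. Among all 35116 windows, ERSE was found in 0.0769%, ERSE-II in 0.0541% and the UPRE core in 1.97%. Of the 10 members with ERSE or ERSE-II, 3 were higher, 1 was lower and 6 did not pass, with log2 fold changes between -0.47 and 0.33 and a median of 0.11. Over all 29 tested genes with either element, 8 were higher and 7 lower, and among the 19 that are not members 5 were higher and 6 lower, with a median of -0.05. Of the 22 members with a window and neither element, 14 were higher, none was lower and 8 did not pass by edgeR, with log2 fold changes between -0.23 and 0.97 and a median of 0.25. The difference between these counts was not tested, and 33.8% of all genes were called. EDEM1, SIL1, DNAJC3, OS9, P4HB and SEL1L, the 6 members with the highest fold changes, were among the latter. A match describes the letters of a window and not a bound site, and a window without one says nothing of elements outside it.

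**Figure D4:**
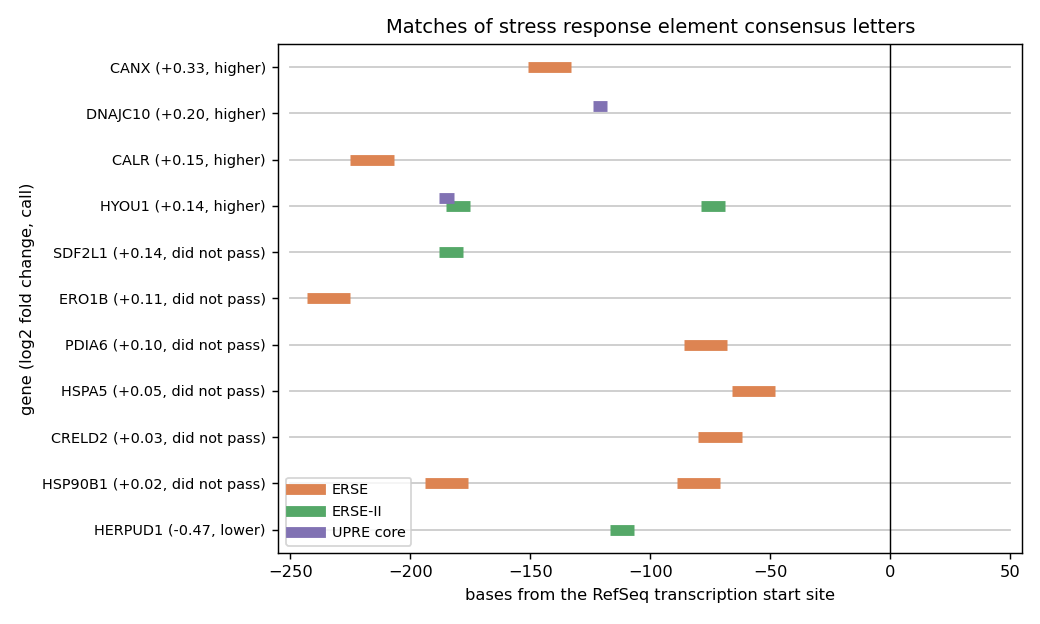
Position of the matches to ERSE, ERSE-II and the UPRE core in the RefSeq promoter windows of the 11 members that hold any, in bases from the transcription start (vertical line), with members ordered by log2 fold change. CANX at 0.33 stands at the top and HERPUD1 at -0.47 at the bottom, and the matches lie up to 243 bases before the start.

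Paralogues were compared by the ratio of their RPKM values in each library. EDEM1 stood at 0.739, 0.722 and 0.749 times the EDEM3 level in control and at 1.22, 1.08 and 1.08 times that level after 25(OH)D, a difference of 0.61 on the log2 scale. The ratio of DERL1 to DERL2 was 4.32, 5.18 and 4.71 in control and 6.29, 7.09 and 5.81 after 25(OH)D (difference 0.43), and that of ATF6 to ATF6B was 0.259, 0.246 and 0.245 and 0.284, 0.299 and 0.342 (difference 0.30). The ratio of CALR to CANX went from 2.80, 2.77 and 2.82 to 2.52, 2.44 and 2.45 (difference -0.18), and that of EDEM2 to EDEM3 went from 0.422, 0.482 and 0.488 to 0.413, 0.400 and 0.373 (difference -0.23). In these 5 of 7 pairs the ratios of one group lay wholly outside those of the other, with a two-sided exact permutation p of 0.1, the smallest that 3 libraries against 3 allow, and an adjusted p of 0.14 over the 7 pairs. The ratios of ERO1A to ERO1B and of DERL1 to DERL3 overlapped between the groups (exact permutation p = 0.6 and p = 1).

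Of the 20 called members, 12 share exon bases with another gene of the deposited annotation. For 6 of them an overlapping gene on the opposite strand was called in the same direction. For EDEM1 this was RP11-572B2.1, which shares 9.66% of its exon bases and had a mean of 43.5 counts against 2340 for EDEM1. For OS9 it was RP11-571M6.7 (13.5% of the bases, 1475 against 30794 counts), for SIL1 CTB-46B19.2 (3.71%, 845 against 3218 counts), and for P4HB RP11-498C9.2 (9.98%, 503 against 18556 counts). SIL1 also shares 2.62% of its bases with MATR3 on the opposite strand. MATR3 had a mean of 21613 counts and was called lower (log2 fold change -0.13, adjusted p = 0.0106 by edgeR). PDIA3 shares 14.8% of its bases with ELL3 and DERL1 5.59% with TBC1D31, which had 1630 counts against 2124 for DERL1. Whether the counting used strand is not given in the sources used here, so reads over these shared bases cannot be assigned to either gene. On the same strand, PDIA5 shares 12.2% of its bases with SEC22A, and DNAJC10 1.55% with RPL31P15, which had a mean of 6.67 counts. Of all 35 members, 5 share bases on the same strand, and the rest of these (DNAJB11, ATF6B and SYVN1) were not called.

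The other genes of the pathway, 153 genes in 10 lists, were read from the same fit. Of the 150 tested, 48 were higher and 27 lower. Among all 18183 genes tested, 17.3% were higher and 16.5% lower, and the difference from these shares was not tested. The medians given for the lists are those of the log2 fold changes of the genes tested. In the PERK arm and ATF4 pathway list 1 of 14 genes was higher and 10 were lower, and the median was -0.42. ATF4 had 387, 394 and 429 CPM in control and 249, 232 and 241 CPM after 25(OH)D (log2 fold change -0.75, SE 0.0450, adjusted p = 1.14e-08 by edgeR's quasi-likelihood test). DDIT3 (CHOP), the stress-induced factor downstream of ATF4, had 18.5, 20.9 and 19.6 CPM and 12.8, 10.1 and 10.7 CPM (log2 fold change -0.81, SE 0.0964, adjusted p = 1.42e-05). Both sets of values were without overlap. CEBPB, the 1 gene of the list that was higher, had 19.1, 13.9 and 7.93 CPM in control and 17.3, 21.2 and 32.2 CPM after 25(OH)D (log2 fold change 0.78, SE 0.249, adjusted p = 0.0262 by edgeR). Its groups overlapped, and its call was lost without control replicate 2 (0.80), without control replicate 3 (0.51) and without 25(OH)D replicate 3 (0.50 on the log2 scale). It was also lost by DESeq2 (adjusted p = 0.158) and by limma with either pseudocount.

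XBP1, whose spliced mRNA encodes the transcription factor of the IRE1 arm, had 8069.9, 7965 and 7806 CPM in control and 5419.7, 5505 and 5311 CPM after 25(OH)D. It fell by 31.9% without overlap (log2 fold change -0.55, SE 0.0285, adjusted p = 1.98e-09 by edgeR), while ERN1, which encodes the enzyme that splices it, rose. Spliced and unspliced XBP1 are not separated in gene counts. Its RefSeq window held an ERSE 52 to 34 bases before the start (chr22:28800591-28800633, minus strand), shown because XBP1 fell while members with the same letters rose or did not pass.
XBP1: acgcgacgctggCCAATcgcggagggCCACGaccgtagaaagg

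In the list of the response's transcription factors and IRE1 partners, 3 of 13 genes were higher and 6 lower, with a median of -0.04. The share called was 69.2%, against 33.8% of all genes tested. CREB3, a membrane-bound relative of ATF6, was higher, at 53.0, 50.6 and 56.1 CPM in control and 79.3, 78.9 and 79.9 CPM after 25(OH)D (log2 fold change 0.58, SE 0.0516, adjusted p = 7.54e-07).

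The other lists of ER proteins had more genes higher than lower. Of 16 other ER thiol oxidoreductases tested, 8 were higher and 1 lower (median 0.19), with ERP29 at 334, 317 and 332 CPM in control and 474, 451 and 419 CPM after 25(OH)D (log2 fold change 0.45, SE 0.0454, adjusted p = 2.53e-06 by edgeR) and QSOX2 lower (log2 fold change -0.59). The list of the oligosaccharyltransferase and the glucosidases also held UGGT2 and the cargo lectins LMAN1 and LMAN2. Of its 16 genes, 8 were higher and none lower by edgeR (median 0.20). LMAN1 led them, with 161, 159 and 158 CPM in control and 229.8, 226 and 232 CPM after 25(OH)D (log2 fold change 0.52). Of 24 other genes of ER-associated degradation, 8 were higher, with MAN1B1 at 0.33, and 1, the low RNF145, was lower at -1.16 (median 0.14). In the translocon, signal recognition and signal peptidase list 8 of 24 were higher, with SEC11C at 0.37, and none lower (median 0.04).

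Of 7 ER proline isomerases tested, 3 were higher, with PPIC at 0.52 (median 0.24). Of 14 COPII coat genes 4 were higher, with SEC31B at 0.58 (median 0.11), and no gene of either list was lower by edgeR. The shares called were 42.9% of the isomerases and 28.6% of the COPII genes, against 33.8% of all genes. The COPII count fell to 2 without replicate 2 of either group, to 2 with library sizes alone or upper-quartile factors, and to 1 with limma. The retrieval receptors, which bring escaped proteins back from the Golgi, had 2 of 4 genes higher (median 0.16), among them SURF4, which had 43.2, 38.7 and 41.0 CPM in control and 75.2, 84.7 and 75.2 CPM after 25(OH)D (log2 fold change 0.94, SE 0.0623, adjusted p = 3.32e-08). Among the cytosolic chaperones 3 of 18 were higher and 9 lower (median -0.09). BAG3, a cofactor of cytosolic Hsp70, had 132, 130.3 and 121 CPM and 207, 212 and 209 CPM (log2 fold change 0.71), and CCT5, a subunit of the chaperonin TRiC, had 670.2, 654 and 643 CPM and 548, 542 and 497 CPM (log2 fold change -0.31). The share of genes called in each list was not tested against the background of 33.8% of all genes.

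**Figure D5:**
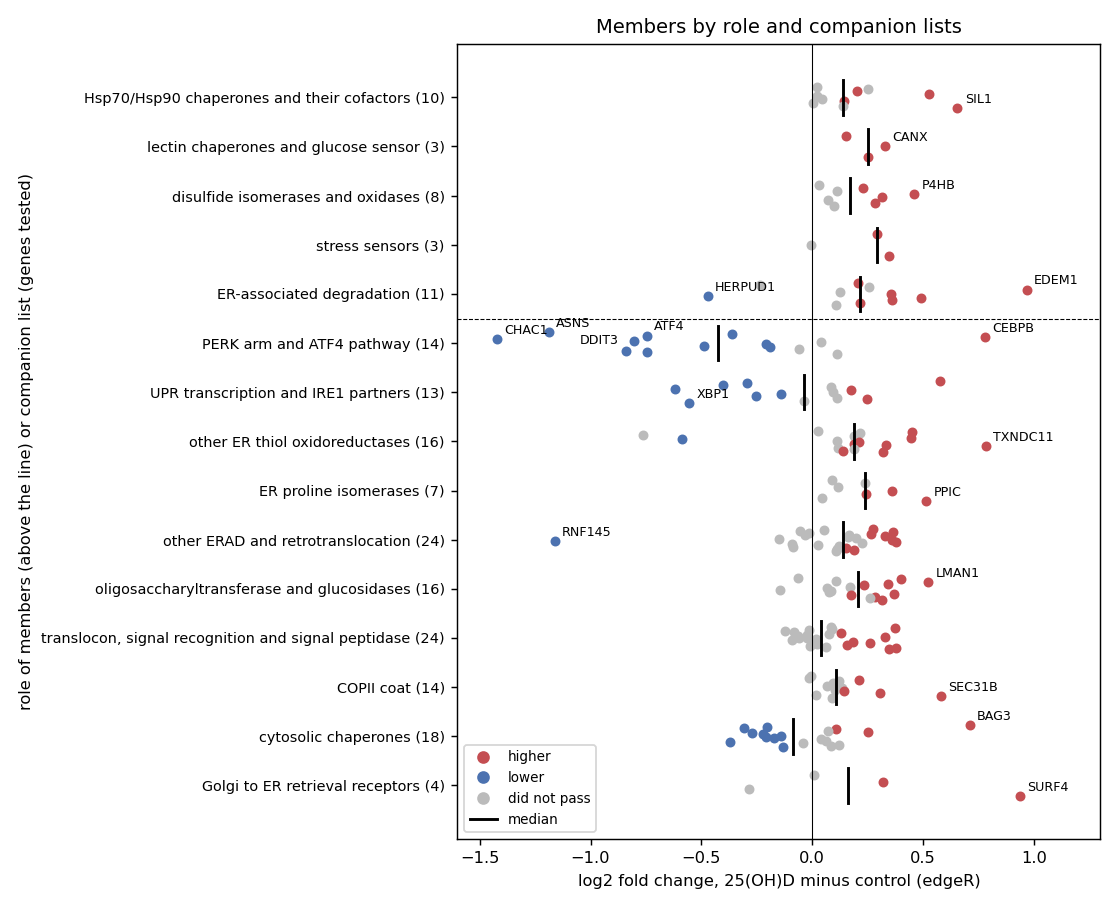
Log2 fold change of 25(OH)D against control for the 35 members by role (above the dashed line) and for the 150 tested genes of the 10 companion lists (below it), with black bars at the medians and red, blue and grey points for genes called higher, called lower and not passed. The PERK arm and ATF4 list lies mostly left of zero, with a median of -0.42, while the medians of the 5 roles lie between 0.14 and 0.29.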

How the data were processed

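The 6 libraries of MDA-MB-453 cells, 3 with 100 nM 25(OH)D and 3 with solvent, were assigned to groups from the sample titles and the names of the groups in the series' design text. Each column of the deposited tables was matched to its library by group name and replicate number. The authors deposited a table of counts, the raw read numbers of each gene, and a table of RPKM values, which equalled the count over exon length and library total, without TMM factors (largest relative difference 5.11e-15). The submitters' processing notes name Trimmomatic 0.36, featureCounts of Subread 1.5.1, edgeR 3.12.1 and GRCh38. The aligner, the annotation release and the strand setting are not given in the sources used here. Library totals lay between 33268860 and 40928176 counts, and no replicates of a group agreed within sampling noise (chi-square per gene 3.97 to 12.1).

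Counts were tested in R 4.3.3 with edgeR 4.0.16 (TMM factors, low-count filter with a minimum count of 10, quasi-likelihood test between the groups, no covariates), with Benjamini-Hochberg adjustment over 18183 genes and a biological coefficient of variation of 0.0788. Confidence intervals came from the quasi-likelihood fit. The fit was tested on simulated data. It recovered 61 of 93 genes changed by 0.5 on the log2 scale and 95 of 107 changed by 1. Among the unchanged genes it called 8. Smaller changes, the size of most members' values, were not simulated. The simulation changed far fewer genes than the 6142 called in the data, so its rates of recovery and false calls need not hold there. Alternatives were DESeq2 1.42.0, other scaling factors, no filter, limma 3.58.1 on log2(RPKM + 1) and log2(RPKM + 0.1), the replicate number as a block, the study's limits on the fold change, and the omission of each library. Paralogue ratios were compared by exact permutation tests in scipy 1.17.1. Promoter windows of 300 bases were those of RefSeq on GRCh38.p14, and exon overlaps were taken from the exon positions deposited with the counts. Protein sequences were not used here.

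The members, the companion lists, the tests and the genes to name were chosen with earlier results of these data known. Every member was described by role. In each companion list the called gene with the smallest p in each direction was named, as were XBP1, EIF2AK3, ATF4 and DDIT3.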

Additional observations from a re-analysis of the deposited data

How the results depend on the processing

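The 20 called members kept their direction in all 14 alternatives of test, scaling, filter and libraries, and 16 of them also kept the call. ATF6, DERL1, HYOU1 and SELENOS lost it in 1, 5, 3 and 7 of these alternatives. Values of genes that did not pass changed sign, some near zero and others larger, such as DERL3, from 0.25 to -0.14 without 25(OH)D replicate 1, and ERO1B, from 0.11 to -0.13 without 25(OH)D replicate 2, and the cause was not tested. At the study's limits 0 members were higher and 0 lower, and of the companion genes 0 were higher and 3 lower, CHAC1, ASNS and RNF145, of which the first 2 are named here after their values were seen. The count of lower members rose to 2 without control replicate 3, by the addition of CRELD2. The median log2 fold change of the members was 0.16 with library sizes alone, 0.17 with upper-quartile factors, 0.16 with limma on log2(RPKM + 0.1), 0.14 with limma on log2(RPKM + 1) and between 0.17 and 0.22 with each library left out, and the first 4 of these settings also moved the median of all genes below its main value of -0.01, to between -0.06 and -0.03. With each library left out, between 18 and 21 members were higher and between 1 and 2 lower, and among the companions between 40 and 48 were higher and between 23 and 24 lower.

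With library sizes alone, upper-quartile factors, limma with 0.1 added and limma with 1 added, in that order, the log2 fold change was -0.024, -0.022, -0.023 and -0.023 for HSP90B1, -0.023, -0.021, -0.023 and -0.023 for DNAJB11, -0.042, -0.040, -0.042 and -0.041 for MANF and -0.0047, -0.0017, -0.0035 and -0.0032 for EIF2AK3. CRELD2 was at -0.017 with library sizes alone and -0.012 with upper-quartile factors. With each library left out the values lay between -0.022 and 0.068 for HSP90B1, -0.013 and 0.040 for MANF, -0.21 and 0.24 for CRELD2, -0.13 and 0.24 for ERO1B, -0.023 and 0.030 for ATF6B, -0.14 and 0.61 for DERL3 and -0.018 and 0.11 for EIF2AK3. The log2 ratio of DERL1 to DERL3 changed by 0.12 with 1 added to the RPKM values, and by -0.34 to 0.38 with each library left out, against -0.01 with all libraries.

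With the replicate number as a block, 20 members were higher and 1 lower, since DNAJB9 passed (log2 fold change 0.25), the median of the members was 0.20, and 49 companions were higher and 25 lower, CEBPB no longer among them (0.80). No other call of a member changed, and 5953 of all genes were called in place of 6142. No pairing by replicate number was visible in the values. Deviations of same-numbered libraries from their group means correlated at -0.07, -0.01 and -0.05, and no library correlated best with its own number. Whether same-numbered libraries were handled together cannot be told from these values. Depth limits DERL3 and ERO1B, whose intervals are the widest of the members.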
